A study of Mus musculus with 8 samples.

Results

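The loss of the myelin gene Cnp was followed across all classes of brain nuclei, in single-nucleus RNA sequencing of brain hemispheres without cerebellum and olfactory bulb from 6-month-old mice on the C57BL6/J strain. The design crossed 2 alleles, which gave 2 libraries each of WT, Cnp-/-, 5xFAD and Cnp-/-;5xFAD mice. The 4 libraries without Cnp (Cnp-/- and Cnp-/-;5xFAD) were compared with the 4 libraries with Cnp (WT and 5xFAD), and UMI counts (counts of unique molecules) of all 61949 nuclei were summed per library over each of the 8 classes that the authors annotated. The Cnp-/- allele is constitutive, so every class lacked the gene throughout life, and 5xFAD mice carry human transgenes with familial Alzheimer's mutations under the neuronal Thy1 promoter. The labels tie no library to a single animal. The paper's reporting summary gives 2 pooled animals per replicate for single-cell work, while its methods describe pooling only for a younger set of mice. The p-values therefore measure the spread between these libraries, which may be partly technical.

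CNP is an abundant enzyme of non-compact myelin that keeps open the cytoplasmic channels between the axon and the outer oligodendrocyte. Mice without it form myelin that looks largely intact at first, and they later develop axonal swelling, gliosis and inflammation. Oligodendrocytes arise from precursor cells (OPC) through newly formed oligodendrocytes (NFOL) to mature oligodendrocytes (MOL), which carry the myelin programme. Astrocytes, microglia, endothelial cells, pericytes and neurons do not make myelin, although microglia take up its debris.

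The libraries held 6801 to 8824 nuclei and 68905044 to 82399061 UMIs each, with at least 501 UMIs and 301 genes per nucleus. The classes differed widely in depth. Neurons gave 45141 nuclei and 562167111 UMIs, MOL 5612 and 9445114, astrocytes 4810 and 14068186, microglia 2472 and 4583093, endothelial nuclei 1667 and 8602209, OPC 1522 and 4880683, NFOL 465 and 2644841 and pericytes 260 and 402570. Each of the 8 lists of class markers had its highest summed level in its own class. Of 61494 distinct barcodes, 454 occurred in more than 1 library. Levels are given as CPM, the UMIs of a gene with all UMIs of the summed profile scaled to 1000000, with replicates 1 and 2 of a genotype in that order. A change is a log2 fold change, without Cnp over with Cnp, from edgeR's quasi-likelihood test, and a gene was called where its p adjusted by Benjamini-Hochberg over all genes tested in that class was at most 0.05.

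The 7 genes called in the largest number of classes, 3 each, were Tmod1, Fmn1, Pex5l, Tulp4, Magi2, Kirrel3 and Pak1, all higher without Cnp in NFOL, MOL and microglia. RefSeq (GRCm38.p6) held promoters for 5 of them, with none for Pex5l and Kirrel3. It listed 2 each for Fmn1, Tulp4, Magi2 and Pak1, of which 1 each was used, and 1 for Tmod1. The 250 bases before the start are shown for the 3 genes whose RefSeq start lay within 10 bases of the GENCODE start, since these are the starts upstream of genes that moved together. All 3 are on the plus strand, at chr2:113327486-113327735 for Fmn1, chr5:19226796-19227045 for Magi2 and chr7:97788291-97788540 for Pak1.
Fmn1: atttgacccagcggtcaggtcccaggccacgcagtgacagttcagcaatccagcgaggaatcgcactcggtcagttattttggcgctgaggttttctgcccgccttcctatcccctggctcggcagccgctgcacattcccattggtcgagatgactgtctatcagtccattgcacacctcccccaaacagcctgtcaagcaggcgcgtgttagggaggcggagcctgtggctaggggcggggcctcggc
Magi2: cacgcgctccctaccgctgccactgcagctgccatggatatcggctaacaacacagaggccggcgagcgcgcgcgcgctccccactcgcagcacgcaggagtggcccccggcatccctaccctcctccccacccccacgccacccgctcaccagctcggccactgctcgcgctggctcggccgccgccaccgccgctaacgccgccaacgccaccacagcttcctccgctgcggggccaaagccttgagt
Pak1: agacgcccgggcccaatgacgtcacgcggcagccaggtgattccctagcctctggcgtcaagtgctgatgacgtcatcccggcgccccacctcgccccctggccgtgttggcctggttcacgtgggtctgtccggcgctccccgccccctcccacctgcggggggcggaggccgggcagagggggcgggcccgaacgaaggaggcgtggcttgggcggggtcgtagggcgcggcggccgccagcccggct
No letters are in capitals because none of the searched motifs was found in these 3. Of the other promoters searched, that of Tmod1, whose RefSeq start lies 287 bases from the GENCODE start, held 1 match to the SOX letters, and that of Tulp4 none. The search took ACAAAG or ACAATG, bound by SOX factors, and CTGGCAC or CTGGTAC, bound by MYRF, on both strands, where the end of a MYRF match and the start of a SOX match can share the letters AC. The SOX letters occur in 25.2% and the MYRF letters in 5.93% of the 32851 promoters of the same length. The GC content of the shown promoters is 60.8% for Fmn1, 72.0% for Magi2 and 74.8% for Pak1.

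Cnp itself (chromosome 11, 100574904 to 100591729, GRCm38) was the check of the labels. In MOL, the class with its highest level, Cnp stood at 283 and 321 CPM in WT, 219 and 265 in 5xFAD, 23.1 and 23.2 in Cnp-/- and 24.0 and 32.8 in Cnp-/-;5xFAD. The groups did not overlap, and the level was 10.0-fold lower without Cnp (log2 change -3.32 ± 0.17 SE, edgeR adjusted p = 0.000801). In NFOL it stood at 19.3 and 118 CPM in WT, 54.0 and 64.3 in 5xFAD, 10.1 and 8.62 in Cnp-/- and 15.3 and 14.9 in Cnp-/-;5xFAD, again without overlap (-2.26 ± 0.51 SE, edgeR adjusted p = 0.0366), from 2 to 6 UMIs per library without Cnp. The sources used do not tell which part of the gene the remaining UMIs cover. In the other classes the change was not called. It was -2.04 in astrocytes (edgeR adjusted p = 0.720), where the groups did not overlap and DESeq2 gave an adjusted p of 0.00400. It was -1.60 in OPC, -1.40 in microglia, -1.28 in endothelial nuclei and -0.24 in neurons, and in pericytes only 5xFAD 1 held any UMI, 3 in all.

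In no class did the share of nuclei pass as different between the groups. Astrocytes came nearest, with 6.53% ± 1.11 (SD, n = 4) of all nuclei without Cnp and 9.04% ± 1.43 (SD, n = 4) with Cnp. They made up 9.58% and 7.04% in WT, 10.4% and 9.12% in 5xFAD, 4.88% and 7.33% in Cnp-/- and 6.92% and 6.98% in Cnp-/-;5xFAD, so that Cnp-/- 2 lay above WT 2 and all others without Cnp below all with it. The difference was -2.51 percentage points (two-sided exact permutation test over 70 relabellings, p = 0.0571, adjusted over the 8 classes p = 0.457). The smallest p this design allows is 0.0286, so a single class could not pass after adjustment over the 8. The lack of a pass therefore decides nothing.

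The means of the oligodendrocyte classes were close, but they average differences of opposite sign in the 2 backgrounds. Without 5xFAD the difference was 2.28 percentage points in MOL, 0.588 in OPC and 0.203 in NFOL, and with 5xFAD it was -1.72, -1.11 and -0.355. Signs were opposite too in microglia (0.930 without 5xFAD and -0.533 with it) and in neurons (-2.48 and 6.41). The contrast between backgrounds was not tested. Neurons made up 60.0% of nuclei in 5xFAD 1, the lowest of the 8 libraries, and 71.2% in 5xFAD 2, which bears on the shares of all other classes. In MOL the shares were 13.7% and 7.61% in 5xFAD and 9.71% and 8.15% in Cnp-/-;5xFAD, so 5xFAD 2 lay below both of the latter. MOL made up 9.22% ± 1.87 (SD, n = 4) without Cnp and 8.94% ± 3.22 (SD, n = 4) with Cnp (exact permutation p = 0.857). NFOL made up 0.720% ± 0.168 and 0.796% ± 0.50 (exact permutation p = 0.80, n = 4 each), and OPC 2.33% ± 0.320 and 2.59% ± 1.18 (exact permutation p = 0.714, n = 4 each). Microglia made up 4.13% ± 1.76 and 3.93% ± 2.55 (exact permutation p = 0.914, n = 4 each), with the highest shares in the 5xFAD libraries, 6.95% and 4.98%, and in Cnp-/-;5xFAD, 6.05% and 4.82%. Endothelial nuclei made up 2.93% ± 0.434 and 2.40% ± 0.465 (exact permutation p = 0.171, n = 4 each). Neurons made up 73.8% ± 2.76 and 71.8% ± 8.98, and pericytes 0.362% ± 0.151 and 0.488% ± 0.265. In each class the groups overlapped. Among non-neuronal nuclei alone, astrocytes made up 25.2% ± 5.83 and 33.4% ± 5.74 (exact permutation p = 0.143, n = 4 each). The mean difference there was above 0 in both backgrounds in MOL and microglia, and of opposite sign in OPC and NFOL. MOL made up 31.1% and 35.4% of non-neuronal nuclei in WT and 44.1% and 32.8% in Cnp-/-. With 5xFAD, MOL made up 34.2% and 26.4% in 5xFAD and 33.3% and 30.4% in Cnp-/-;5xFAD. No class passed, which a single class could not do there either.

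**Figure D1:**
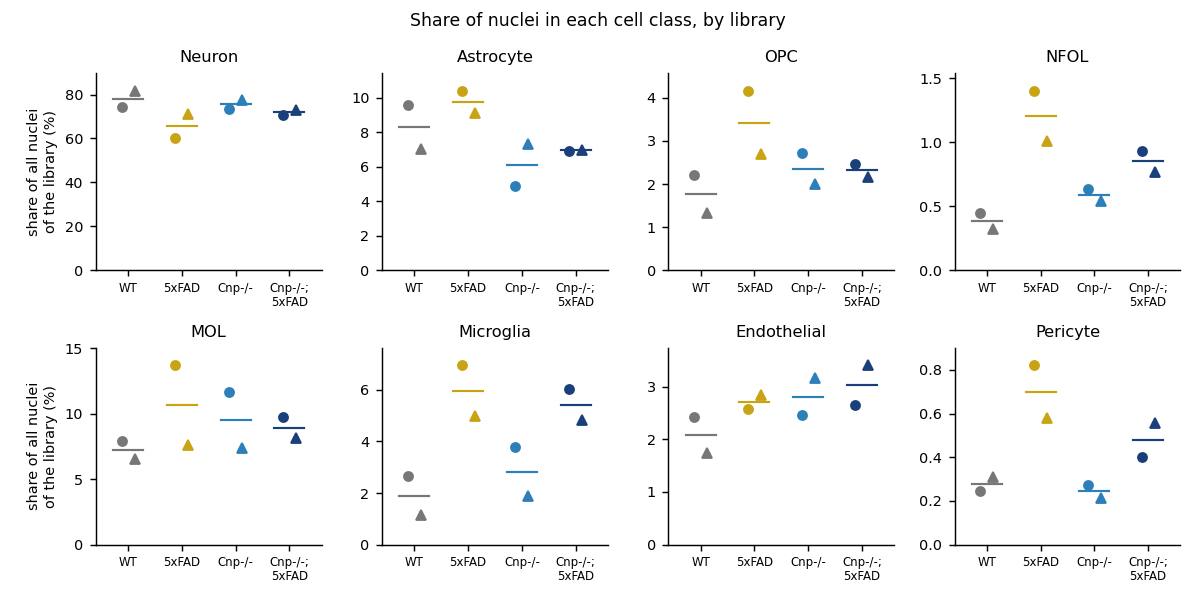
Share of each class among all nuclei of a library, in percent, on an axis that starts at 0. Circles are replicate 1, triangles replicate 2 and lines the mean of the genotype. In no class are all 4 libraries without Cnp apart from all 4 with Cnp.

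By edgeR, most calls came from NFOL, MOL and microglia. NFOL had 58 genes higher and 58 lower without Cnp among 7248 tested (0.8% and 0.8%), MOL 39 higher and 28 lower among 8761 (0.445% and 0.32%), and microglia 82 higher and 5 lower among 9621 (0.852% and 0.052%). Neurons, with by far the most UMIs, had 1 gene higher and 3 lower among 21584 (0.00463% and 0.0139%), and endothelial nuclei 0 higher and 5 lower among 11754 (0.0% and 0.0425%). Astrocytes, OPC and pericytes had none by edgeR (0.0% in both directions in each), with 641, 393 and 103 genes at an unadjusted p under 0.05 and 7, 1 and 0 genes called by DESeq2. Of the 85 calls of genes named here in a class, 7 were made without each library in turn: A830036E02Rik and Krt20 in neurons, C4b and Cnp in MOL and Cldn14, Pex5l and Tmod1 in NFOL. This order of counts changed with the processing. DESeq2 called 517 genes in MOL, 181 in neurons, 172 in microglia, 62 in NFOL and 42 in endothelial nuclei, and edgeR without a filter on low counts called 544 in MOL, 458 in endothelial nuclei, 423 in microglia, 358 in astrocytes, 344 in NFOL and 4 in neurons. These counts cannot be read as an order of response, since the classes differ in UMIs, in genes tested and in the spread between libraries. The biological coefficient of variation was 0.466 in MOL, 0.297 in microglia, 0.292 in astrocytes, 0.278 in pericytes, 0.207 in neurons, 0.178 in endothelial nuclei, 0.166 in OPC and 0.165 in NFOL. The effect of Cnp loss was not called as different with and without 5xFAD for any gene of any class by edgeR, with 1066 genes in neurons, 715 in microglia, 690 in endothelial nuclei, 493 in astrocytes, 342 in OPC, 307 in NFOL, 299 in MOL and 120 in pericytes at an unadjusted p under 0.05. DESeq2 called 58 such genes in neurons, 34 in endothelial nuclei, 20 in microglia, 11 in MOL, 9 in astrocytes and 0 in OPC, NFOL and pericytes.

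**Figure D2:**
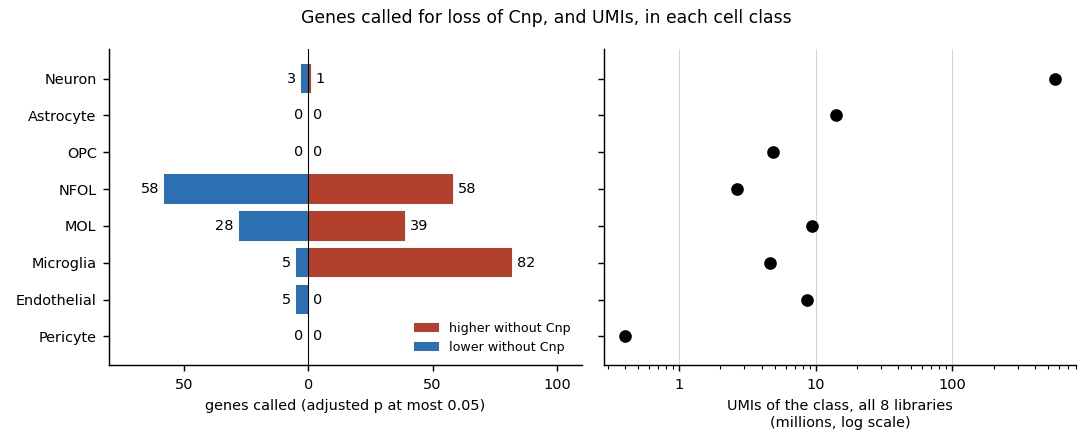
Left, genes called per class by edgeR at an adjusted p of at most 0.05, higher without Cnp to the right of 0 and lower to the left; right, UMIs of the class over all 8 libraries on a log scale. NFOL, MOL and microglia had 116, 67 and 87 calls, and neurons 4 from 562167111 UMIs.

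Genes changed in common were nearly all higher without Cnp. Of the 238 genes called in at least 1 class, 204 were called in 1, 27 in 2 and 7 in 3. All 34 genes called in at least 2 classes had the same direction in those classes, 33 higher and 1, Cnp, lower. NFOL and MOL shared 14 called genes (12.1% of the NFOL genes and 20.9% of the MOL genes), NFOL and microglia 22 (19.0% and 25.3%), and MOL and microglia 12 (17.9% and 13.8%). No other pair of classes shared a called gene. All classes come from the same 8 libraries and their nuclei from the same tissue pieces, so the overlap is a count and was not tested. Of the 33 genes, 27 had their highest level in MOL, against 18.0% of the genes tested in NFOL, 21.5% in MOL and 15.5% in microglia. The median change of the 33 was 1.07 in NFOL, 0.76 in MOL and 1.35 in microglia. It was 0.25 in astrocytes (25 tested), 0.22 in OPC (27 tested), 0.15 in neurons, 0.11 in pericytes (8 tested) and -0.13 in endothelial nuclei (32 tested). Leaving out any 1 library lowered the 7 genes called in 3 classes to between 0 and 3. The 34 called in at least 2 became 35 without WT 2, 0 without 5xFAD 2, 1 without 5xFAD 1 or Cnp-/-;5xFAD 2, 11 without Cnp-/-;5xFAD 1, 14 without Cnp-/- 1, 20 without WT 1 and 23 without Cnp-/- 2. The 7 MOL markers, given below for each class, were higher without overlap in NFOL and in microglia as well, and with the microglial nuclei enriched in myelin transcripts and others left out, a fit described below, 16 genes were called in at least 2 classes and 0 in 3. The NFOL, MOL and microglia medians come from the classes that chose the genes and are a description. The median over all genes tested lay between -0.06 and 0.01 in every class.

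Tmod1, which encodes tropomodulin, a cap of actin filaments, moved furthest of the 7 in NFOL and microglia. In MOL it stood at 399.7 and 291 CPM in WT and 382 and 385 in 5xFAD, against 822 and 877 in Cnp-/- and 889 and 983 in Cnp-/-;5xFAD (1.37 ± 0.12 SE, edgeR adjusted p = 0.00778). In NFOL the levels were 34.7, 45.9, 37.8 and 73.9 CPM with Cnp and 193, 172, 170.3 and 169 without it (1.95 ± 0.24 SE, edgeR adjusted p = 0.00100). In microglia they were 38.0, 52.4, 66.9 and 76.8 CPM with Cnp and 238, 131, 155 and 204 without it (1.75 ± 0.25 SE, edgeR adjusted p = 0.0261). The gene was thus higher in all 4 libraries without Cnp than in all 4 with it in each of the 3 classes, while its level in microglia was a fraction of that in MOL.

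The other 6 genes called in 3 classes changed by 0.56 to 1.56 on the log2 scale. Fmn1, a formin that builds actin filaments, rose by 1.25 in MOL, 1.01 in NFOL and 1.31 in microglia on the log2 scale. Its MOL levels were 255 and 210.3 CPM in WT, 283 and 278 in 5xFAD, 478 and 627 in Cnp-/- and 642 and 566 in Cnp-/-;5xFAD. An antisense transcript within it, Gm13963, was called in MOL (1.38) and microglia. Pak1, a kinase that acts on actin, rose by 0.66 in MOL, 1.04 in NFOL and 1.2 in microglia. Kirrel3, an adhesion protein of the immunoglobulin family, stood in MOL at 1743 and 1088 CPM in WT, 1658 and 1729.8 in 5xFAD, 3159 and 3669 in Cnp-/- and 4267 and 4695 in Cnp-/-;5xFAD (1.41), and it rose by 0.76 in NFOL and 1.16 in microglia. Magi2, a scaffold protein of cell contacts, was the most abundant of the 7 in MOL, with 7678 to 8504 CPM with Cnp and 11501 to 12899 without it (0.68, and 0.56 in NFOL and 1.43 in microglia). Neither gene had overlapping groups in any of the 3 classes.

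Pex5l encodes a partner of HCN channels, and Tulp4 a tubby-like protein. Pex5l rose by 0.76 in MOL, where it went from 3364 to 3873 CPM with Cnp to 5071 to 6609 without it, by 1.28 in NFOL and by 1.56 in microglia. Tulp4 rose by 0.91 in MOL, 0.71 in NFOL and 0.90 in microglia. Among the genes called in both NFOL and MOL were Cldn14, a claudin, Rasal1, which switches off Ras, and St3gal1, a sialyltransferase. Cldn14 stood in NFOL at 7.71, 19.7, 21.6 and 19.1 CPM with Cnp and 81.1, 86.2, 119 and 68.3 without it (2.48, edgeR adjusted p = 0.00215), and at 99.3 to 157 and 218 to 276 CPM in MOL (0.96). Ephb2, a receptor for ephrins, was called in MOL, at 26.4 to 82.7 CPM with Cnp and 191 to 345 without it (2.25), and in microglia, at 0 to 26.7 and 62.2 to 77.7 CPM (2.40).

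**Figure D3:**
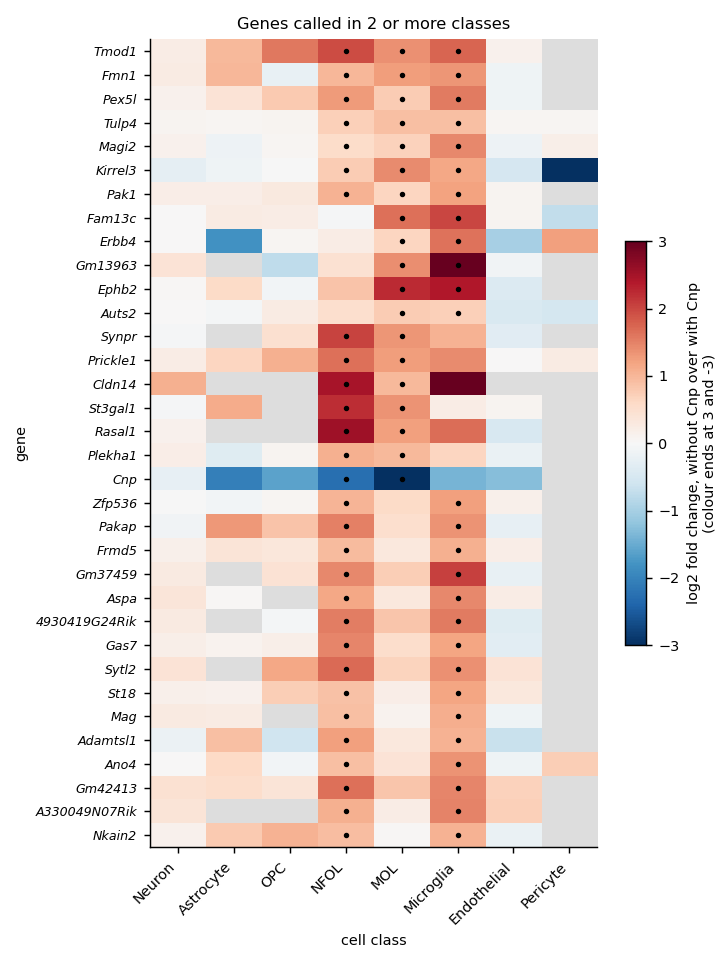
Log2 change of the 34 genes called in at least 2 classes (rows) in each of the 8 classes (columns); a dot marks a call, grey a gene not tested there, and the colour ends at 3 and -3. Of the 33 higher genes, 28 have a dot in NFOL, 18 in MOL and 27 in microglia, and Cnp is the only row with called values below 0.

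In NFOL, some genes of mature myelin were higher without Cnp. Of the 18 myelin and oligodendrocyte genes tested, 7 were higher and 0 lower, beside 0.8% and 0.8% of all genes tested in the class, with a median of 0.91 beside 0.01. They were Mbp, the main protein of compact myelin, Mag, an adhesion molecule of the axon-facing membrane, Cldn11, the claudin of myelin tight junctions, Opalin, Tspan2, Qdpr and Aspa, which cleaves acetylaspartate. Mbp stood at 512 and 1174 CPM in WT, 1359.7 and 1003 in 5xFAD, 2189.7 and 2137 in Cnp-/- and 2659 and 1905 in Cnp-/-;5xFAD (1.18 ± 0.21 SE, edgeR adjusted p = 0.0151). Opalin stood at 30.8 to 65.6 CPM with Cnp and 98.0 to 134 without it (1.24), and Qdpr at 19.3 to 65.6 and 67.6 to 137 CPM (1.46). Of all 58 higher genes, 48 (82.8%) had their highest level of any class in MOL, against 18.0% of the genes tested.

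The lower genes of NFOL had their highest level mostly in astrocytes, 46 of 58 (79.3%) against 13% of the genes tested. Slc4a4, a sodium bicarbonate cotransporter of astrocytes, stood at 975, 623, 385 and 591 CPM with Cnp and 274, 396, 236 and 235 without it (-1.14, edgeR adjusted p = 0.0112), with 5xFAD 1 below Cnp-/- 2, and was the 1 called gene of the 7 astrocyte markers. Itih3, a hyaluronan-binding matrix protein, fell from 28.8 to 53.9 CPM to 2.54 to 16.9 CPM (-2.28), and Tnc, the matrix protein tenascin C (-1.53), and Asic1, an acid-sensing channel (-1.66), fell too. Markers of neighbouring classes moved with these genes. The 7 MOL markers summed to 2100, 5084, 4200 and 3648 CPM in NFOL with Cnp and to 6671, 6132, 7326 and 6261 without it, and the 7 astrocyte markers to 5256, 2644, 3328 and 4194 with Cnp and to 2095, 2387, 2290 and 2354 without it, with no overlap in either. The part of these markers in the NFOL calls was not tested, and more transcript per nucleus and another mix of nuclei in the class cannot be told apart in summed profiles.

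Dusp10, a phosphatase of MAP kinases, was also higher in NFOL, at 6.56 to 21.6 CPM with Cnp and 43.1 to 62.4 without it (2.30). The NFOL profiles were small, with 37 and 22 nuclei in WT, 104 and 73 in 5xFAD, 51 and 48 in Cnp-/- and 65 and 65 in Cnp-/-;5xFAD. The number of calls depended on single libraries, with 15 without Cnp-/- 1, 33 without WT 1, 44 without 5xFAD 2, 51 without Cnp-/-;5xFAD 1, 52 without Cnp-/- 2, 59 without Cnp-/-;5xFAD 2 and 366 without WT 2, and NFOL gave 0 calls when only the mice with or only the mice without 5xFAD were compared, 2 libraries against 2.

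In MOL, myelin genes did not pass, and C4b was the 1 called gene of the 2 tested from the complement list, beside 0.445% of all MOL genes called higher. None of the 18 myelin genes was called, with a median of 0.09 beside -0.03 over all genes tested. In counts simulated for MOL with the common spread for every gene, 2% of 2-fold changes were recovered. That figure need not hold for abundant genes, since Magi2 (0.68) and Pak1 (0.66) were called in MOL at less than 2-fold. The 7 MOL markers summed in MOL to 19582 to 24002 CPM without Cnp and 20402 to 23072 with it. The lack of a call does not by itself exclude a change of a single myelin gene. C4b, complement component 4B (chromosome 17, 34728380 to 34743882), stood at 15.5 and 16.9 CPM in WT, 170.4 and 112 in 5xFAD, 290.0 and 300.0 in Cnp-/- and 305 and 297 in Cnp-/-;5xFAD (2.70 ± 0.18 SE, edgeR adjusted p = 0.00291). The 4 libraries without Cnp lay close together, and 5xFAD stood between them and WT. The change was less with 5xFAD than without it by 3.11 on the log2 scale, which did not pass (edgeR adjusted p = 0.279). Masp1, a protease of the lectin pathway of complement, stood at 8.63, 3.17, 19.4 and 11.2 CPM with Cnp and 57.9, 67.1, 37.2 and 64.6 without it (2.60, edgeR adjusted p = 0.0431).

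C4b was also higher in astrocytes by value, at 69.5 and 61.1 CPM in WT, 125 and 118 in 5xFAD, 179.6 and 255 in Cnp-/- and 211 and 149.8 in Cnp-/-;5xFAD, without overlap between the groups. Its change of 1.15 did not pass by edgeR (adjusted p = 0.720) and passed by DESeq2 (adjusted p = 6.53e-05). All 13 tested genes of the reactive astrocyte list, C4b included, had positive values in astrocytes, with a median of 0.97 beside -0.01 over all genes tested, and none was called. The values of C4b were 1.09 in NFOL, 1.22 in neurons, 0.68 in microglia and 0.83 in OPC, none called.

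**Figure D4:**
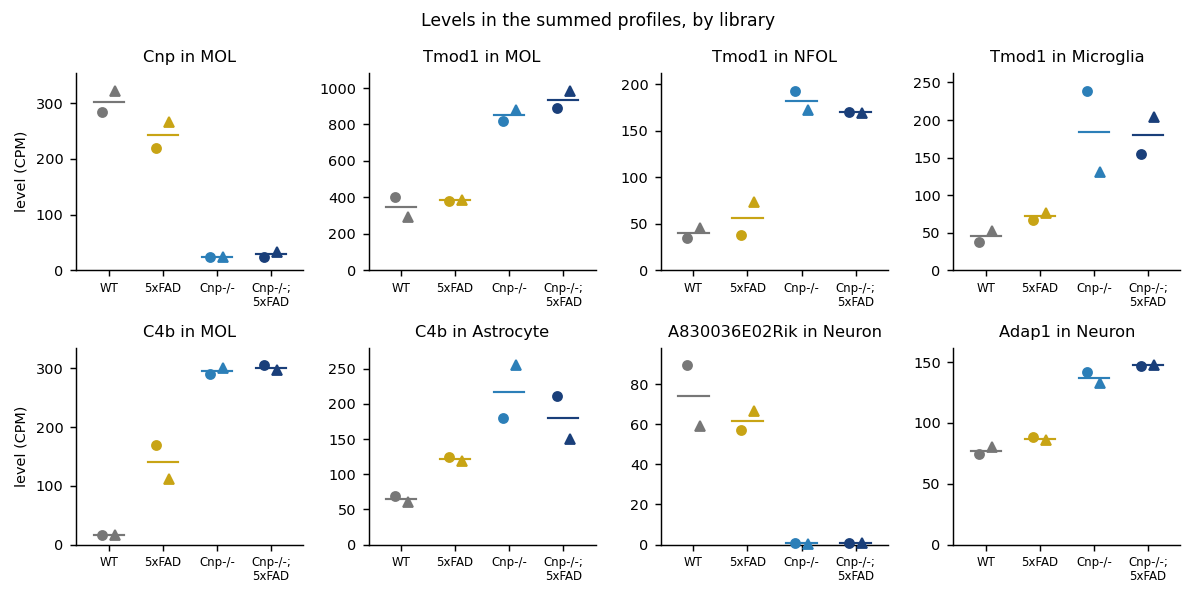
CPM in summed profiles by library for Cnp, Tmod1, C4b, A830036E02Rik and Adap1 in the classes named over each panel, on axes that start at 0. Circles are replicate 1, triangles replicate 2 and lines the mean of the genotype. C4b in MOL rises from 15.5 and 16.9 CPM in WT through 5xFAD to 290.0 to 305 CPM in the libraries without Cnp.

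Further MOL genes changed by large factors in either direction. Adamtsl3, a matrix protein, stood at 0.863 and 1.06 CPM in WT, 26.6 and 22.4 in 5xFAD, 60.9 and 128 in Cnp-/- and 90.1 and 102 in Cnp-/-;5xFAD (4.29, edgeR adjusted p = 0.00778). Cacna2d3, an accessory subunit of calcium channels, held 0, 12, 1 and 0 UMIs with Cnp and 84, 26, 172 and 178 UMIs without it (5.67, edgeR adjusted p = 0.0326). In the other direction, Deptor, an inhibitor of mTOR, held 46, 23, 96 and 19 UMIs with Cnp and 0, 0, 1 and 0 without it. Robo1, a receptor for Slit guidance cues, stood at 603, 1066, 699.8 and 353 CPM with Cnp and 15.8, 32.9, 84.3 and 9.23 without it (-4.25, edgeR adjusted p = 0.0318). The unannotated transcripts A330072L02Rik and A530053G22Rik were lower as well (-5.47 and -4.87). The rule that chose these genes required groups without overlap, as found for 9.90% of all genes tested in MOL.

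Genes of oligodendrocyte formation and of protein folding were few among the MOL calls. Enpp6, a choline phosphodiesterase that marks newly forming oligodendrocytes, stood at 155, 196, 189 and 168 CPM with Cnp and 46.3, 63.4, 56.2 and 46.2 without it (-1.67, edgeR adjusted p = 0.0160), the only 1 of 11 tested lineage genes to pass, beside 0.32% of all MOL genes called lower. Herpud1, a gene of the response to unfolded proteins, stood at 35.9 to 56.1 CPM with Cnp and 2.05 to 18.3 without it (-2.79), the only 1 of 9 tested genes of its list, beside the same 0.32%. All 8 heat shock genes tested had values below 0, with a median of -1.16, and none passed. The number of MOL calls was 2 without 5xFAD 2, 3 without 5xFAD 1, 7 without Cnp-/-;5xFAD 2, 12 without WT 2, 20 without Cnp-/- 2, 29 without WT 1, 29 without Cnp-/-;5xFAD 1 and 262 without Cnp-/- 1, and 0 within either 5xFAD background alone, whereas C4b and Cnp were called without each library in turn.

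In microglia, most of the higher genes were ones whose highest level was in MOL. Of the 82 genes higher without Cnp, 55 (67.1%) had their highest level in MOL, against 15.5% of the genes tested, and 5 in microglia. Of the 18 myelin genes, 5 were higher, namely Mog and Mag of the myelin surface, Ugt8a, which makes galactosylceramide, Car2 and Aspa, beside 0.852% of all genes tested in microglia, with a median of 1.14 beside 0.01. Mag stood at 133, 105, 176 and 165 CPM with Cnp and 418, 271, 222 and 291 without it (1.08 ± 0.19 SE, edgeR adjusted p = 0.0365). The transcription factor gene St18 (1.18) and Mapt, which encodes tau (1.08), moved alike.

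The 7 MOL markers summed in microglia to 1779 and 1199 CPM in WT, 2748 and 2704 in 5xFAD, 6285 and 3455 in Cnp-/- and 2962 and 4236 in Cnp-/-;5xFAD, against a mean of 21606 CPM in MOL with Cnp. The authors' own subdivision of microglia names a group of nuclei enriched in myelin transcripts (MyTE), which held 11, 3, 47 and 30 nuclei in WT 1, WT 2, 5xFAD 1 and 5xFAD 2, and 59, 20, 47 and 53 in the libraries without Cnp in the same order. A fit chosen after the data were seen left out these MyTE nuclei, the macrophages and the nuclei without a subtype, 656 in all, and kept 1816. The MOL markers then summed to 281, 139, 298 and 297 CPM with Cnp and 272, 0, 313 and 238 without it. In that fit 28 genes were higher and 4 lower among 6618 tested, and 14 of the 32 were among the 87 called in all microglia, of which 44 were tested. The values of Mag, Mapt and St18 were then -0.27, -1.39 and -0.69, none called (edgeR adjusted p = 0.962, 0.845 and 0.845), as follows in part from leaving out nuclei defined by myelin transcripts, and no gene was then called in 3 classes. Whether the MyTE transcripts lay within microglia or beside them in the droplets was not tested.

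**Figure D5:**
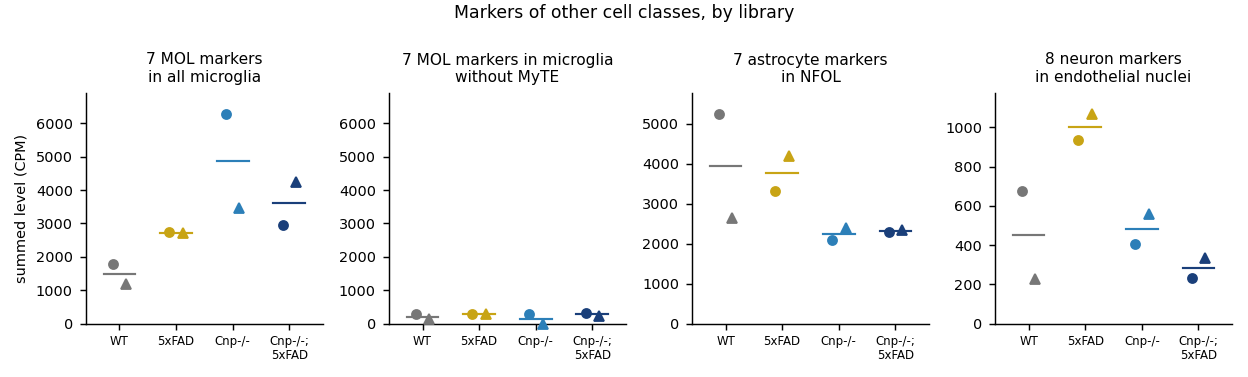
Summed CPM of the markers of another class, by library, on axes that start at 0: MOL markers in all microglia and in microglia without MyTE nuclei, macrophages and nuclei without a subtype (same axis), astrocyte markers in NFOL and neuron markers in endothelial nuclei. Circles are replicate 1, triangles replicate 2 and lines the mean of the genotype. The MOL markers reach 6285 CPM in all microglia and at most 313 CPM in the kept nuclei.

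The 14 genes called in both microglial fits included genes of immune cells. Others of the 14 had their highest level in neurons, pericytes, astrocytes, MOL, endothelial nuclei (Flt1 among them) or OPC (Nav3). Apobec1, an RNA-editing deaminase that marks disease-associated microglia, stood in all microglia at 157, 180.4, 261 and 217 CPM with Cnp and 384, 318, 327 and 344 without it (0.81, edgeR adjusted p = 0.0365), and its value was 1.54 in the kept nuclei. Fgr, a Src-family kinase of myeloid cells, stood at 5.43, 11.6, 37.9 and 50.1 CPM with Cnp and 100.2, 103, 77.9 and 57.9 without it (2.20, and 2.35 in the kept nuclei). Flt1, a receptor for vascular endothelial growth factor, changed by 1.46 and 3.41. In the kept nuclei Flt1 stood at 0 and 12.7 CPM in WT, 103 and 106 in 5xFAD, 248 and 200 in Cnp-/- and 255 and 155 in Cnp-/-;5xFAD. Fgr stood there at 9.51 and 12.7 CPM in WT. The kept profiles held only 79010 to 532935 UMIs, so these WT levels rest on few UMIs and the size of the fitted changes is uncertain. Csmd3, a large surface protein, was lower, in all microglia at 4408, 3428, 3346 and 3431 CPM with Cnp and 2224, 2017, 2631 and 3033 without it (-0.54, and -0.73 in the kept nuclei), as was Nav3 (-0.77 and -0.81). The 6 endothelial markers, Flt1 among them, summed in all microglia to 111 to 160 CPM with Cnp and 184 to 251 without it, and their part in the Flt1 value was not tested.

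The kept nuclei differ in their mix of subtypes between the groups. Nuclei that the authors named myelin-DAM, a disease-associated subtype, numbered 1, 0, 5 and 7 with Cnp and 83, 36, 67 and 49 without it, and amyloid-DAM nuclei 1, 0, 184 and 127 with Cnp and 14, 5, 143 and 112 without it, beside 155, 48, 199 and 150 and 106, 64, 123 and 137 homeostatic nuclei. The values of the kept nuclei are sums over these subtypes, so a change of mix and a change within a subtype cannot be told apart. Abca1, Igf1 and Lilrb4a were called in the kept nuclei and not in all microglia. Abca1, an exporter of cholesterol, stood at 395 and 329 CPM in WT, 387 and 436 in 5xFAD, 730.4 and 839 in Cnp-/- and 545 and 679 in Cnp-/-;5xFAD (0.82, edgeR adjusted p = 0.0358). Igf1, a growth factor, stood at 19.0 and 0 CPM in WT, 218 and 261 in 5xFAD, 187 and 186 in Cnp-/- and 267 and 278 in Cnp-/-;5xFAD (1.96, edgeR adjusted p = 0.0358), so that 5xFAD overlapped the libraries without Cnp. Lilrb4a, an inhibitory immune receptor, was likewise lowest in WT (2.18), with 19.0 and 0 CPM in WT and 192 to 259.9 CPM in all others. The WT levels of Igf1 and Lilrb4a rest on few UMIs, so the size of their fitted changes is uncertain. Mitf, a transcription factor of lysosomal genes with its highest level in microglia, changed by 0.77 in the kept nuclei and was called in NFOL at 0.70. The 6 microglia markers summed in NFOL to a mean of 486 CPM without Cnp and 276 with it, with overlap. Their part in the NFOL value was not tested. Of the 32 genes, 18 had their highest level in microglia, against 41.9% of the 6618 genes tested in the kept nuclei.

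Lpl, lipoprotein lipase, was also lowest in WT, in all microglia, at 0 and 5.82 CPM in WT, 79.9 and 117 in 5xFAD, 86.4 and 81.1 in Cnp-/- and 123 and 126 in Cnp-/-;5xFAD (2.87, edgeR adjusted p = 0.0278). Of the 20 tested genes of the disease-associated list, Lpl and Apobec1 were called higher, beside 0.852% of all genes tested in microglia. Of the 20, 14 were above 0, with a median of 0.43 beside 0.01. The paper reports Apoe, Abca1, Apobec1 and Ms4a genes as higher in myelin-DAM than in amyloid-DAM of these same nuclei. The list holds Apoe, Abca1, Apobec1 and Ms4a7, so its counts are a description and no independent support. None of 10 homeostatic genes passed (median -0.38). Arl5c, a small GTPase gene on chromosome 11, held no UMI in either WT library, so its fitted change is no bound. It stood at 13 and 21.7 CPM in 5xFAD, 39.7 and 43.7 in Cnp-/- and 38.4 and 42.7 in Cnp-/-;5xFAD. Maf, a transcription factor of homeostatic microglia, was lower at 337 to 377 CPM without Cnp and 452 to 1071 with it (-0.81), and Tm6sf1, a membrane protein gene, at 118 to 147 and 173 to 293 CPM (-0.73). The 6 microglia markers summed in microglia to 4253 to 5039.5 CPM without Cnp and 5072 to 6339 with it, without overlap, and their part in these lower values was not tested. All microglia gave 0 calls without 5xFAD 1, without 5xFAD 2 or without Cnp-/-;5xFAD 2, 10 without Cnp-/- 1, 26 without Cnp-/-;5xFAD 1 and 154 without WT 1, and 0 within either 5xFAD background alone.

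In neurons, 3 of the 4 called genes lay next to each other and near Cnp. A830036E02Rik (chromosome 11, 99416956 to 99425497), an unannotated transcript, stood at 89.3 and 59.1 CPM in WT, 57.2 and 66.4 in 5xFAD, 0.713 and 0.436 in Cnp-/- and 0.651 and 0.751 in Cnp-/-;5xFAD (-6.66 ± 0.22 SE, edgeR adjusted p = 0.000168). Krt12 (99415666 to 99422259), a keratin, stood at 22.8 to 39.3 CPM with Cnp and 1.81 to 3.00 without it (-3.78), and Krt20 (99428403 to 99438150), another keratin, at 2.77 to 3.93 and 0.143 to 0.180 CPM (-4.28). All 3 lie within 1.16 Mb of Cnp. Krt12 and A830036E02Rik overlap on opposite strands, and whether the counting kept their reads apart was not tested. Of 360 genes tested in neurons that start within 10 Mb of Cnp, these 3 were called, beside 0.0139% of all neuronal genes called lower, and the median of the 360 was -0.03. In other classes the same window held Cnp and Pitpnc1, a lipid transfer protein, both lower among 112 tested in NFOL (beside 0.8% of all genes), Cnp and Abca8a, a transporter, both lower among 142 in MOL (beside 0.32%), and Mapt and Arl5c, both higher among 162 in microglia (beside 0.852%).

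The 4th neuronal gene, Adap1, encodes a GTPase-activating protein of Arf that is abundant in neurons. It stood at 74.3 and 80.1 CPM in WT, 88.1 and 85.8 in 5xFAD, 142 and 132 in Cnp-/- and 147 and 147 in Cnp-/-;5xFAD, with no overlap (0.86 ± 0.06 SE, edgeR adjusted p = 0.00552). Its highest level of any class was in MOL. The neuronal count ranged from 2 without 5xFAD 2 to 5 without WT 1, and A830036E02Rik and Krt20 were called without each library in turn.

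In endothelial nuclei the 5 called genes were all lower, and 4 of them had their highest level in neurons, against 9.85% of the genes tested. Meg3, a long non-coding RNA of neurons, stood at 945 and 768 CPM in WT, 1509 and 1818 in 5xFAD, 501 and 588 in Cnp-/- and 299.8 and 439.9 in Cnp-/-;5xFAD (-1.40 ± 0.14 SE, edgeR adjusted p = 0.0254). Dpp6, an accessory subunit of potassium channels, changed by -1.65, Pde1a, a cyclic nucleotide phosphodiesterase, by -1.39, A830018L16Rik by -1.37 and Celf4, a neuronal RNA-binding protein, by -1.21. The 8 neuron markers summed in endothelial nuclei to 673, 225, 936 and 1070 CPM with Cnp and 404, 560, 233 and 334 without it, and their part in these calls was not tested. The count was 0 without Cnp-/- 1, Cnp-/- 2, 5xFAD 2 or Cnp-/-;5xFAD 1, 1 without 5xFAD 1 or Cnp-/-;5xFAD 2, 13 without WT 1 and 97 without WT 2. Within 1 background, 2 libraries against 2, it was 0 without 5xFAD and 326 with 5xFAD (3 higher, 323 lower), the 5 genes included. The difference between backgrounds was called for 0 endothelial genes by edgeR and 34 by DESeq2.

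A call in 1 class is no test that the class differs from the others, so the change of each of the 204 genes called in 1 class was compared with its change in every other class where it was tested, within the same libraries. None of the 201 genes that could be compared differed from every other class where it was tested (edgeR, p adjusted over all genes of each pair of classes), although 54 did at an unadjusted p under 0.05, 27 in microglia, 17 in MOL and 10 in NFOL. A difference from at least 1 other class was found for 34 genes (16.7%), 21 of NFOL, 11 of MOL and 2 of microglia. The 204 genes were chosen by a call in these same libraries, which favours such differences, so this share is a description. Robo1, Gramd1b and Opcml of MOL differed from the largest number, 3 classes each. In NFOL they included Mbp and Tspan2 among the higher genes and Slc4a4 among the lower, and in MOL Adamtsl3 and Cacna2d3. The largest count over all genes was 28 of 7248 tested, between neurons and NFOL. It was followed by 16 of 6960 between OPC and NFOL and 16 of 7122 between OPC and MOL, and 18 of the 28 pairs of classes had none. When the profiles of all classes were thinned to the same number of UMIs, few classes could still be compared, and 4 genes of MOL differed from each of those, Robo1 from 3 other classes, Schip1 from 2 and Kcnab1 and Scd2 from 1 each.

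The remaining lists held few calls or none. Bcas1, a gene of newly myelinating cells, was called in microglia (1.38), the only 1 of 9 lineage genes tested there, beside 0.852% of all genes called higher. The cholesterol synthesis, heat shock, circadian clock, glucocorticoid-responsive, immediate early, blood-brain barrier, homeostatic microglia, neuron type, mitochondrial and sex-linked lists held no called gene in any class. Of the mitochondrial transcripts, 7 of 7 tested had values above 0 in MOL (median 0.89), 9 of 10 in astrocytes (median 0.23), 1 of 10 in neurons (median -0.32) and 0 of 11 in endothelial nuclei (median -0.31), and their part in the calls of those classes was not tested. Cholesterol synthesis genes had 0 of 21 values above 0 in neurons (median -0.19), 1 of 20 in astrocytes (-0.18), 4 of 14 in OPC (-0.35), 3 of 10 in NFOL (-0.59), 4 of 14 in MOL (-0.39), 5 of 8 in microglia (0.14) and 9 of 18 in endothelial nuclei (-0.01). Interferon and antigen presentation genes had 22 of 23 values above 0 in endothelial nuclei (median 0.33) and 15 of 17 in astrocytes (median 0.47), without a call.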

How the data were processed

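Nuclei of 8 libraries, 2 per genotype, were sequenced by the 10x 3' protocol. The authors aligned reads with Cell Ranger 6.1.2 to mm10, removed ambient transcripts with CellBender, filtered nuclei on genes and UMIs, removed undefined clusters and annotated classes with Seurat. The values used are the UMI counts per gene and nucleus that the authors deposited, not normalized; whether intronic reads were counted and how doublets were treated is not given in the sources used here. The deposited totals matched the counts in all 61949 nuclei.

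Counts were summed per library and class, with at least 20 nuclei per profile. The pericyte profile of Cnp-/- 2 fell below this and was left out, so pericytes had 7 libraries. The library was the replicate. Genes were filtered by filterByExpr and scaled by TMM in edgeR 4.0.16 (R 4.3.3), with 1 mean per genotype and the contrast mean of Cnp-/- and Cnp-/-;5xFAD minus mean of WT and 5xFAD. CPM were computed without TMM factors. Differences between classes were fitted in pairs of classes with library as a term. For shares, all relabellings of the libraries were enumerated (two-sided exact permutation test). The models were tested on counts simulated from the mean levels, depths and common spread of each class. Changes of 2-fold were recovered for 2% of changed genes in MOL, 11% in microglia, 13% in pericytes and 25% in astrocytes. In NFOL it was 55%, in OPC 60%, in endothelial nuclei 63% and in neurons 66%. Changes of 4-fold were recovered for 48% in MOL, 70% in pericytes, 85% in microglia and 96% to 100% in the other classes. Every simulated gene had the common spread of its class, so these figures need not hold for genes with another spread. Positions are those of GENCODE vM21 (GRCm38), matched by symbol for 61 of 62 named genes. A330072L02Rik has no position. Named genes were Cnp, those called in at least 3 classes, up to 4 per direction and class with the largest change, no overlap and at least 20 CPM, and called members of the lists, of which 1 is not reported here. Genes called in only 1 class whose difference passed against every other class, and genes called in opposite directions, were to be named too, but there were none. Genes outside this rule (among them those named for the kept microglia, Gramd1b, Opcml and the genes of the thinned profiles) were chosen after their values were seen. Members and lists were chosen with earlier results of these data known. Alternatives were DESeq2 1.42.0, no filter, a replicate block, additive terms, each 5xFAD background alone, profiles of at least 5 nuclei, equal UMIs per class and leaving out each library.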

Additional observations from a re-analysis of the deposited data

Results flagged for a closer look

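In 14 of 186 groups of 4 libraries examined, 1 library lay apart from the other 3 by Dixon's 95% criterion, which chance gives in about 1 of 20 groups. For shares this was Cnp-/- 1 with 4.88% astrocytes, below the other libraries without Cnp. In MOL it was WT 2 among the libraries with Cnp for Cacna2d3 (12.7 CPM), Kirrel3 (1088 CPM), Pex5l (3873 CPM) and Tmod1 (291 CPM), and among those without Cnp it was Cnp-/-;5xFAD 2 for Cnp (32.8 CPM) and Cnp-/-;5xFAD 1 for Deptor (0.827 CPM, from 1 UMI). In NFOL it was 5xFAD 1 for Dusp10 (21.6 CPM), WT 2 for St3gal1 (13.1 CPM), Cnp-/- 2 for St3gal1 (60.3 CPM), Cnp-/- 1 for Tmod1 (193 CPM) and Cnp-/-;5xFAD 2 for Pex5l (1316 CPM). In microglia it was WT 1 for Csmd3 (4408 CPM) and Cnp-/- 2 for Maf (377 CPM).

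The share of NFOL nuclei was higher without Cnp by 0.203 percentage points among mice without 5xFAD and lower by -0.355 among mice with 5xFAD, with both libraries on one side in each case. The difference between the backgrounds was not tested.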

How the results depend on the processing

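The calls per class rest on few libraries, and their number moved with most settings. No share of nuclei passed under any alternative, but with a smallest exact permutation p of 0.0286 (0.0556 within backgrounds) a single class cannot pass after adjustment over 8, so this says nothing of stability. DESeq2 called 181 genes in neurons (59 higher, 122 lower), 7 in astrocytes, 1 in OPC, 62 in NFOL, 517 in MOL (223 higher, 294 lower), 172 in microglia and 42 in endothelial nuclei, with 87 in at least 2 classes and 20 in at least 3. Without a filter on low counts, edgeR called 358 in astrocytes, 127 in OPC, 344 in NFOL, 544 in MOL, 423 in microglia, 458 in endothelial nuclei and 12 in pericytes, with 282 and 70 in common. With additive terms the counts were 125 in MOL, 4 in microglia and 0 in endothelial nuclei, with 3 genes in at least 3 classes. With only mice without 5xFAD they were 0 in neurons, NFOL, MOL, microglia and endothelial nuclei, and with only 5xFAD mice 1 in neurons, 0 in NFOL, MOL and microglia and 326 in endothelial nuclei (3 higher, 323 lower), with 0 in common in both. Without 5xFAD, pericytes gave 29 calls (2 higher, 27 lower) from 2 WT libraries against 1 Cnp-/- library, which is assumed to vary like WT. At equal UMIs in all classes they were 0 in neurons, 2 in OPC, 0 in NFOL, 32 in MOL, 29 in microglia, 0 in endothelial nuclei and 3 in pericytes, with 5 and 1 in common and 4 of MOL different from each of the 1 to 3 other classes in which they were still tested. At equal UMIs in 5 classes (neurons, astrocytes, MOL, endothelial nuclei and OPC) they were 2 in neurons, 107 in MOL and 3 in endothelial nuclei, with 0 in common, as this setting leaves out NFOL and microglia, which take part in every gene shared otherwise. Microglia without MyTE nuclei, macrophages and nuclei without a subtype gave 32, with 16 and 0 in common, and values below 0 for Mag (-0.27), Mapt (-1.39) and St18 (-0.69), none called (edgeR adjusted p = 0.962, 0.845 and 0.845). The difference between backgrounds by DESeq2, added after the data were seen, gave 58, 9, 11, 20 and 34 genes in neurons, astrocytes, MOL, microglia and endothelial nuclei. The cause of these moves was not tested.

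Leaving out each library in turn gave 2 to 5 calls in neurons, 0 to 0 in astrocytes, 0 to 3 in OPC, 15 to 366 in NFOL, 2 to 262 in MOL, 0 to 154 in microglia, 0 to 97 in endothelial nuclei and 0 to 28 in pericytes (without Cnp-/- 1 no Cnp-/- profile of pericytes remains, so 6 libraries were left out in turn there), with 0 to 35 genes in at least 2 classes, 0 to 3 in at least 3 and 0 to 0 different from every other class where tested. Genes called in at least 2 classes numbered 0 without 5xFAD 2, 1 without 5xFAD 1 or Cnp-/-;5xFAD 2, 11 without Cnp-/-;5xFAD 1, 14 without Cnp-/- 1, 20 without WT 1 and 23 without Cnp-/- 2. Of 85 calls of named genes in a class, 7 were made without each library in turn, namely A830036E02Rik and Krt20 in neurons, C4b and Cnp in MOL and Cldn14, Pex5l and Tmod1 in NFOL. The difference in share ranged from -1.97 to 5.21 percentage points in neurons, -3.17 to -1.96 in astrocytes and -0.522 to 1.86 in MOL.

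The deviations of libraries of the same replicate number had correlations of -0.264 to 0.286 across 7 classes, pericytes not examined. With 2 libraries per genotype this cannot exclude a pairing, and the main fits assumed none. With the replicate number as a block the counts were 43 in NFOL, 23 in MOL, 29 in microglia and 13 in pericytes, with 10 and 1 in common.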
